A study of Mus musculus with 18 samples.

Results

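The 4 genes described here are Cmpk2, Rsad2, Samhd1 and Nt5c3, taken from a table of 50600 genes measured by RNA sequencing in whole B16F10 tumors, a mouse melanoma line grown under the skin of C57BL/6 mice. Cmpk2 and Rsad2 are neighbours in the genome, and Samhd1 and Nt5c3 encode 2 further enzymes that act on nucleotides. The set was chosen by measured values: its members respond to an agonist of STING, the sensor protein that starts interferon production, in these same tumors. The differences between agonist-treated and PBS-treated tumors are therefore given as a description, and nothing is read from calls made on them. Each of the 4 genes passed the filter on low counts.

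The 4 enzymes work on overlapping pools of nucleotides. Cmpk2 is a mitochondrial kinase that phosphorylates the pyrimidine monophosphates CMP and UMP. Rsad2, also called viperin, is a radical-SAM enzyme that turns CTP into ddhCTP, an analogue that ends RNA chains of some viruses. Samhd1 hydrolyses deoxynucleoside triphosphates, which starves reverse transcription, and Nt5c3 is a cytosolic nucleotidase that removes the phosphate from CMP and UMP. Type I interferon is known to raise transcription of such genes through transcription factors that bind a promoter element called the ISRE.

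In the GRCm38 annotation of GENCODE, Cmpk2 (ENSMUSG00000020638) lies on the plus strand at chr12:26469204-26479837 and Rsad2 (ENSMUSG00000020641) on the minus strand at chr12:26442746-26456452. The pair is arranged head to head, with start sites 12752 bases apart and 0 annotated genes in between. Samhd1 (ENSMUSG00000027639) lies on the minus strand at chr2:157097533-157135265, and Nt5c3 (ENSMUSG00000029780) on the minus strand at chr6:56882400-56923932. All 4 are protein-coding genes, and the values below count reads over all exons of each. Nt5c3 overlaps 1 annotated gene, Gm3793, which had at most 1 count in any tumor, and the others overlap none.

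The promoters of the neighbouring pair are shown because the genes moved together in these tumors. Each sequence holds the 250 bases before a RefSeq start site (GRCm38.p6), 5′ to 3′ on the gene's own strand, and capitals mark a match to the ISRE core GAAANNGAAA on either strand. The first is chr12:26456453-26456702 on the minus strand and the second chr12:26468965-26469214 on the plus strand.
Rsad2: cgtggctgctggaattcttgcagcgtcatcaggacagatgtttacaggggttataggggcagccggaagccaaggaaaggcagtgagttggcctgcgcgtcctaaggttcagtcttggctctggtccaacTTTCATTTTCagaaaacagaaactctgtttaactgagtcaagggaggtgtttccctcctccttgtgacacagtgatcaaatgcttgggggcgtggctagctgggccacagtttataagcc
Cmpk2: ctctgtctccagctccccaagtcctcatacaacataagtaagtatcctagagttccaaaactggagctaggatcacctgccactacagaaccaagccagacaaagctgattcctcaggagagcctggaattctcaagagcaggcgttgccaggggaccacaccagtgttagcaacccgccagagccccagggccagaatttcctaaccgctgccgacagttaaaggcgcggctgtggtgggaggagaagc
The Rsad2 window held 1 match, on the opposite strand, whose first base lies at -120 from the start site. No match was found in the Cmpk2 window, nor in those of Samhd1 and Nt5c3. The Nt5c3 window belongs to a RefSeq start site at position 56901886, inside the gene. The annotated 5′ end of Nt5c3, at 56923932, was not searched. Of 32851 RefSeq mouse promoters searched from 250 bases before to 50 after the start, 3.44% held this core. The GAS core TTCNNNGAA, a site type of genes that answer interferon gamma, was present at -235 in the Samhd1 window and in 8.30% of all promoters, and in no other member's window. A match is a string of letters and was not tested as a binding site, and a start site used in these tumors may lie elsewhere.

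Tumors were injected directly with PBS, with unloaded EVs, with the agonist CDN2 or with exoCDN2, and were collected 24 h after the last injection. CDN2, named CL656 in the sample labels, is a cyclic dinucleotide agonist of STING, EVs are extracellular vesicles made by the human line HEK293, and exoCDN2 is CDN2 loaded into such vesicles at 0.1 µg per injection. After 1 dose there were groups of PBS, unloaded EVs, exoCDN2, CDN2 (20 µg) and CDN2 (100 µg), and after 2 doses given 3 days apart there were groups of PBS, exoCDN2 and CDN2 (20 µg). Each of these 8 groups had 2 tumors, and 2 further tumors received 2 doses of CDN2 in an amount that their labels do not give. The labels do not name individual mice, so the p-values measure only the spread between the sequenced tumors. Total expected counts per tumor lay between 21608895 and 65983630, and the smallest count of any of the 4 genes was 397. Levels are given as CPM, counts scaled to the size of the library with TMM factors. The melanocyte markers Dct, Tyrp1, Pmel, Mlana and Tyr were all detected in every group, and their summed level ran from 7231 CPM in a tumor after 2 doses of CDN2 to 23121 CPM in a tumor after 2 doses of PBS. A lower value in a whole tumor may mean fewer cells of a type or less RNA per cell, and the 2 cannot be told apart.

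Cmpk2 was low without agonist and reached its top level 24 h after the first dose of CDN2. PBS tumors had 48.6 and 45.4 CPM after 1 dose and 9.30 and 8.77 CPM after 2 doses. Unloaded EVs gave 43.1 and 22.8 CPM. After the first dose, exoCDN2 tumors had 925 and 1245 CPM, CDN2 (20 µg) tumors 1303 and 1701 CPM, and CDN2 (100 µg) tumors 635 and 737 CPM. The agonist tumors of the first dose thus stood far above every control tumor, and those given the larger amount of CDN2 were the lowest among them. After the second dose, exoCDN2 tumors had 203 and 158 CPM and CDN2 (20 µg) tumors 457 and 418 CPM. In the order of the 8 group means, no neighbouring groups overlapped: 2 doses of PBS, EVs, 1 dose of PBS, 2 doses of exoCDN2, 2 doses of CDN2, CDN2 (100 µg), 1 dose of exoCDN2 and 1 dose of CDN2 (20 µg). The share of all genes so separated was not counted, and values against PBS chose the gene, so this order is a description.

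Rsad2 followed nearly the same order at higher counts. PBS tumors had 105 and 89.2 CPM after 1 dose and 21.6 and 15.4 CPM after 2. The tumors given unloaded EVs differed most from each other, at 141 and 53.4 CPM, on both sides of the PBS tumors. One dose of exoCDN2 gave 3128 and 3437 CPM, CDN2 (20 µg) 3807 and 5706 CPM, and CDN2 (100 µg) 3023 and 3237 CPM. The ranges of CDN2 (100 µg) and exoCDN2, which are neighbours in the order of means, overlapped. After 2 doses, the exoCDN2 tumors had 620 and 439 CPM and the CDN2 (20 µg) tumors 1707 and 1848 CPM, with no overlap between these groups or with any group of the first dose. How many of all genes were separated in this way was not counted. By count, Rsad2 ranked between 16 and 19 among all genes in the 6 agonist tumors of the first dose, and between 7148 and 8024 after 2 doses of PBS.

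Samhd1, the deoxynucleotide hydrolase, spanned a far smaller range. PBS tumors had 81.6 and 90.9 CPM after 1 dose and 48.3 and 54.0 CPM after 2, and EV tumors lay between, at 58.3 and 72.3 CPM. One dose of exoCDN2 gave 234 and 259 CPM, CDN2 (20 µg) 197 and 244 CPM, and CDN2 (100 µg) 148 and 158 CPM. At the second dose, where the neighbouring pair was lower, Samhd1 had 265 and 174 CPM with exoCDN2 and 213 and 188 CPM with CDN2 (20 µg). Every tumor given exoCDN2 or a labelled amount of CDN2 was above every PBS and EV tumor. Values against PBS chose the gene, and the share of all genes so separated was not counted, so nothing is read from this. The 4 highest groups, 1 and 2 doses of exoCDN2 and of CDN2 (20 µg), each overlapped the group next to it in order.

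Nt5c3, the pyrimidine nucleotidase, had the smallest range. PBS tumors had 63.1 and 64.5 CPM after 1 dose and 62.5 and 67.1 CPM after 2, and EV tumors had 61.6 and 56.9 CPM. After 1 dose, exoCDN2 tumors had 136 and 179 CPM, CDN2 (20 µg) tumors 190 and 253 CPM, and CDN2 (100 µg) tumors 110 and 121 CPM. After 2 doses, exoCDN2 tumors had 143 and 108 CPM, and both CDN2 (20 µg) tumors had 110 CPM. Control tumors sat in a narrow band below all tumors given exoCDN2 or a labelled amount of CDN2, whereas 2 doses of exoCDN2 overlapped both neighbours in the order, CDN2 (100 µg) and 1 dose of exoCDN2. As with Samhd1, values against PBS chose the gene, and the share of all genes so separated was not counted. Over the 16 tumors, the highest level over the lowest was 4.46 for Nt5c3, 5.49 for Samhd1, 194 for Cmpk2 and 371 for Rsad2.

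**Figure D1:**
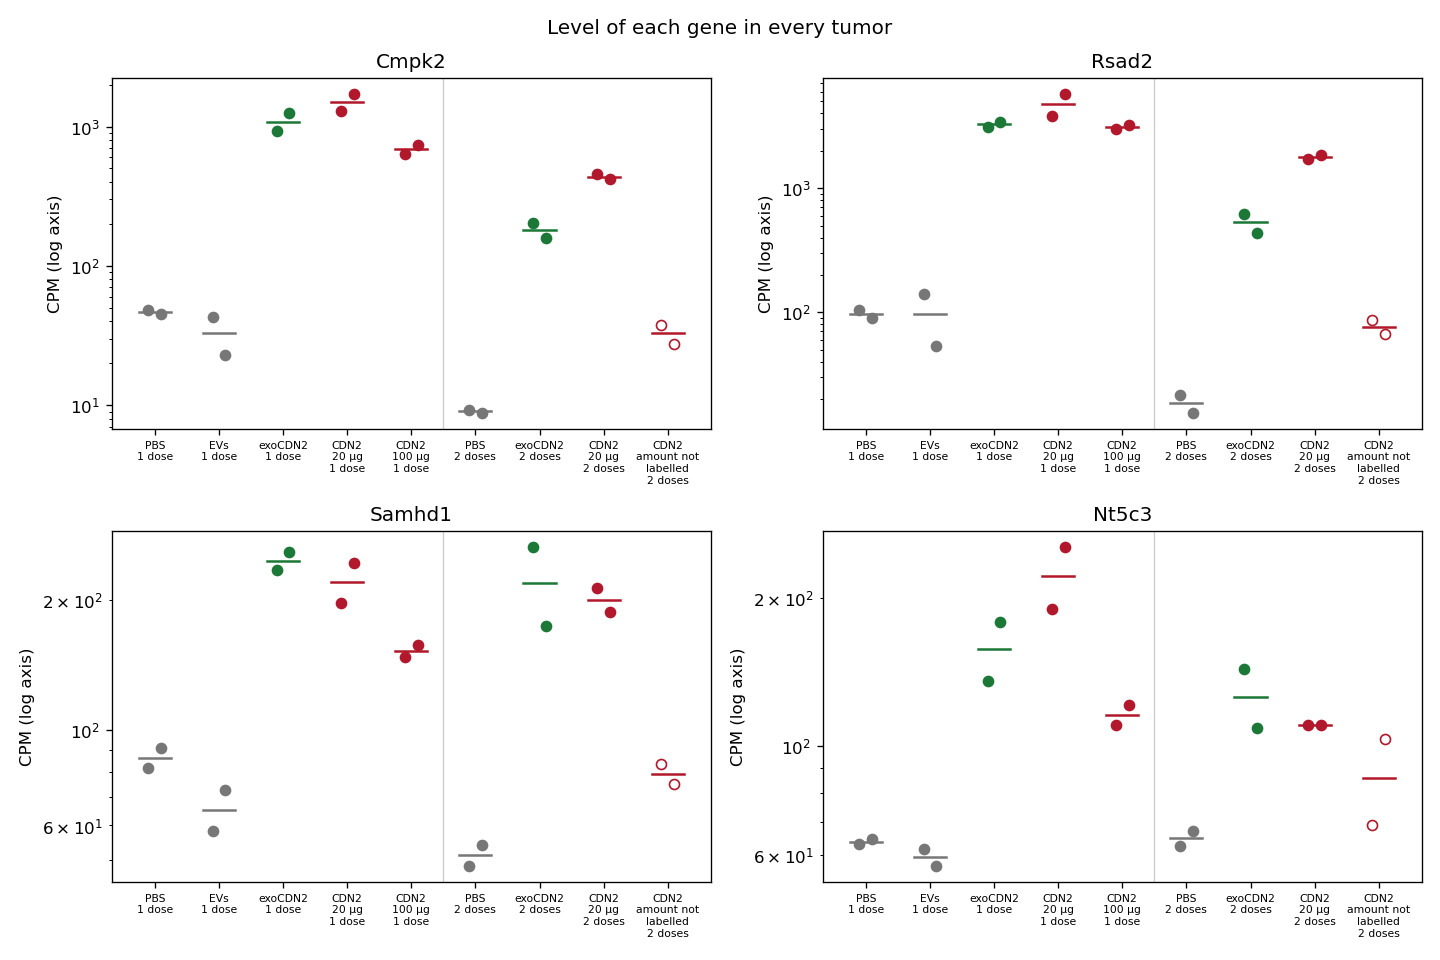
Level of each gene in CPM (vertical log axis) in every tumor, by group (horizontal axis). Points are tumors, horizontal bars are group means, grey marks PBS and unloaded EVs, green exoCDN2, red CDN2, and open points the tumors whose CDN2 amount is not labelled, scaled together with all 18 tumors. Cmpk2 runs from 8.77 to 1701 CPM and is lower at the second dose in PBS, exoCDN2 and CDN2 alike, while Samhd1 lies between 174 and 265 CPM after 2 doses of exoCDN2 or CDN2 (20 µg) and at 83.2 and 75.1 CPM in the tumors of unlabelled amount.

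Levels of different genes were set side by side as TPM, which divides the counts by exon length before scaling. On that scale Rsad2 was the more abundant of the neighbours in every tumor. The Rsad2 to Cmpk2 ratio of TPM was 1.89 and 2.08 after 1 dose of PBS and 1.68 and 2.23 after 2. It was 2.65 and 3.25 after 1 dose of exoCDN2, 2.81 and 3.22 after 1 dose of CDN2 (20 µg), and 4.22 and 4.57 after CDN2 (100 µg). Tumors given the larger amount thus had the highest Rsad2 for their Cmpk2, above all other tumors except 1 given 2 doses of CDN2 (20 µg), whose ratios were 3.59 and 4.25. It was 2.67 and 2.94 after 2 doses of exoCDN2, and unloaded EVs gave 2.25 and 3.14. With 2 tumors against 2, an exact permutation test (two-sided) of a ratio cannot go below 0.333, so these ratios are a description.

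The balance between the kinase and the hydrolase shifted far more. The Cmpk2 to Samhd1 ratio of TPM lay between 1.10 and 1.31 after 1 dose of PBS and between 0.357 and 0.423 after 2 doses. It reached 8.67 to 10.6 after 1 dose of exoCDN2 and 14.5 to 15.3 after 1 dose of CDN2 (20 µg), and stood at 1.68 to 1.99 and 4.71 to 4.88 after 2 doses of the same agents. After 2 doses of exoCDN2, Cmpk2 was therefore less than 2 times as abundant as Samhd1 per length, in tumors where both exceeded PBS. The lengths joined all annotated exons, 4163 bases for Cmpk2 and 9150 for Samhd1, so the size of the ratio depends on that choice. Nt5c3 to Samhd1 ratios stayed within 1.11 and 2.79 in all PBS, exoCDN2 and CDN2 tumors of labelled amount.

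**Figure D2:**
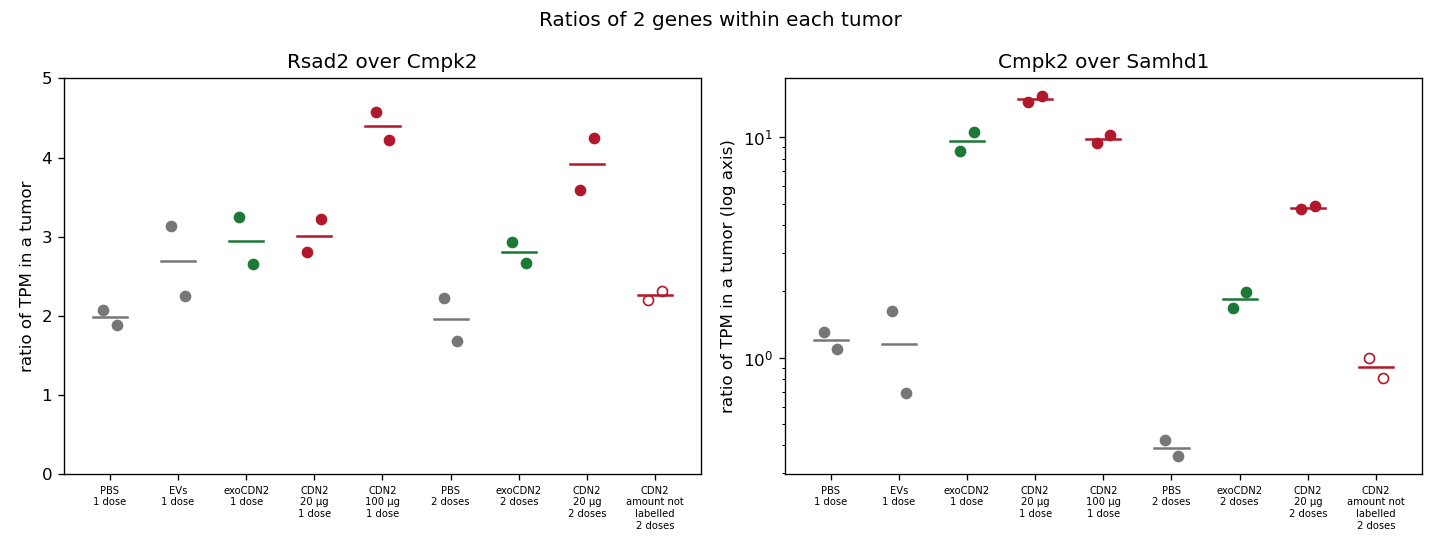
Ratio of TPM between a pair of genes within each tumor (vertical axis, linear from 0 for Rsad2 over Cmpk2 and logarithmic for Cmpk2 over Samhd1), by group. Points are tumors and bars are group means, coloured as in the plot of levels. Rsad2 over Cmpk2 is highest after CDN2 (100 µg), at 4.22 and 4.57, and Cmpk2 over Samhd1 is highest after 1 dose of CDN2 (20 µg), at 14.5 and 15.3.

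Set against PBS, all 4 genes were higher in all 5 agonist groups. After 1 dose of exoCDN2, the log2 fold change was 4.53 (SE 0.298) for Cmpk2, 5.08 (SE 0.423) for Rsad2, 1.52 (SE 0.197) for Samhd1 and 1.30 (SE 0.182) for Nt5c3. One dose of CDN2 (20 µg) gave 4.998, 5.61, 1.35 and 1.80 in the same order. With these agents all 4 passed the limits used throughout, a ratio over 2 with the adjusted p under 0.05, which 2.62% and 3.14% of the 16927 genes tested passed. After CDN2 (100 µg) the log2 fold changes were 3.87, 5.01, 0.83 and 0.86, and only the neighbouring pair exceeded a ratio of 2 (2.44% of all genes). After 2 doses, exoCDN2 gave 4.32, 4.84, 2.10 and 0.96 (11.3% of all genes) and CDN2 (20 µg) gave 5.60, 6.59, 1.97 and 0.76 (30.6%), with Nt5c3 under the ratio limit in both. These contrasts chose the genes, so nothing is read from the counts. The values against 2 doses of PBS rest on a control in which Cmpk2 and Rsad2 were themselves lower than in the PBS tumors of the first dose.

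Unloaded EVs tested whether vesicles alone move the genes. None of the 4 genes was called, nor was any of the 16927 genes (0%), while DESeq2 called 36. An unadjusted p under 0.05 in edgeR's quasi-likelihood test was found for 540 genes, a share below the 0.05 that unchanged genes would give. The log2 difference from PBS was -0.51 (95% interval -1.08 to 0.05) for Cmpk2, 0.00 (-0.78 to 0.78) for Rsad2, -0.40 (-0.82 to 0.02) for Samhd1 and -0.11 (-0.50 to 0.28) for Nt5c3. For Rsad2 the EV tumors differed 2.64-fold from each other, and without EV tumor 1 its difference from PBS was -0.86.

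The comparison of exoCDN2 with CDN2 (20 µg) asked whether 0.1 µg in vesicles acts on these genes as 20 µg of free agonist does. After 1 dose, none of the 4 genes was called, against 0.608% of all genes. The log2 difference, exoCDN2 over CDN2, was -0.47 (95% interval -1.03 to 0.09) for Cmpk2, -0.54 (-1.31 to 0.24) for Rsad2 and 0.16 (-0.26 to 0.58) for Samhd1. For Nt5c3 it was -0.50 (-0.89 to -0.11), with a p of 0.158 in edgeR's quasi-likelihood test after Benjamini-Hochberg adjustment. Each exoCDN2 tumor was below each CDN2 (20 µg) tumor for Cmpk2, Rsad2 and Nt5c3, but the share of all genes so separated was not counted. The intervals leave room for more than 2-fold lower Cmpk2 and Rsad2 with exoCDN2, so a shared level was not shown.

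After 2 doses the neighbouring pair differed between the agents and the other 2 genes did not pass the test. Cmpk2 was 2.43-fold lower with exoCDN2 than with CDN2 (20 µg), a log2 difference of -1.28 (SE 0.261, adjusted p = 0.0048 in edgeR's quasi-likelihood test). Rsad2 was 3.36-fold lower, at -1.75 (SE 0.366, adjusted p = 0.00527 in the same edgeR test). In both genes the tumor values did not overlap, but the share of all genes so separated was not counted. Cmpk2 and Rsad2 were 2 of 4 genes called, beside 19.4% of all genes called between these groups. Of those, more were lower (2037) than higher (1242) with exoCDN2. Samhd1 differed by 0.13 (95% interval -0.29 to 0.55) and Nt5c3 by 0.19 (-0.20 to 0.58), so a difference above 1.5-fold is outside both intervals. Leaving out exoCDN2 tumor 2 of the second dose moved both calls past the limit, to -1.09 (adjusted p = 0.0548) for Cmpk2 and -1.498 (adjusted p = 0.0581) for Rsad2 in the edgeR test. A fit of only these 4 tumors gave adjusted p-values of 0.137 and 0.12 with edgeR, at log2 differences of -1.30 and -1.77.

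Cell markers differed between these same groups. The 4 neutrophil markers (S100a8, S100a9, Csf3r, Cxcr2; 4 of 4 detected) summed to 190 and 841 CPM after 2 doses of CDN2 (20 µg) and to between 17.6 and 57.4 CPM after 2 doses of exoCDN2. The 4 T cell markers (Cd3e, Cd3d, Cd8a, Cd4; 4 of 4 detected) summed to between 4.95 and 5.37 CPM with CDN2 and between 16.4 and 20.9 CPM with exoCDN2. The 5 melanocyte markers summed to 7231 and 12410 CPM with CDN2 and to 14143 and 15294 CPM with exoCDN2. The 2 erythroid markers summed to between 772 and 1010 CPM with CDN2 and between 22.9 and 41.5 CPM with exoCDN2. The 2 skeletal muscle markers summed to between 1227 and 2826 CPM with CDN2 and between 93.4 and 94.9 CPM with exoCDN2. The macrophage and monocyte sums overlapped, at 292 to 706 CPM and 290 to 466 CPM. The part of these shifts in the result for Cmpk2 and Rsad2 was not tested.

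Whether the gap between the agents grew from the first to the second dose was tested as an interaction. The log2 gap changed by -0.81 (SE 0.364, adjusted p = 0.16) for Cmpk2 and by -1.21 (SE 0.505, adjusted p = 0.132) for Rsad2 in edgeR's quasi-likelihood test. None of the 4 genes was called, against 8.31% of all genes. The change was 0.69 (95% interval 0.14 to 1.24, adjusted p = 0.0947 in edgeR) for Nt5c3 and -0.03 (-0.63 to 0.56) for Samhd1. Without the filter on low counts, the Rsad2 change was -1.15 with an adjusted p of 7.85e-05 in edgeR, so its call depends on the filter, and a larger gap at the second dose was not called for Cmpk2.

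A larger amount of free agonist was set against a smaller one after 1 dose. All 4 genes were lower with CDN2 (100 µg) than with CDN2 (20 µg), and in each the tumors of the groups did not overlap. With 2 tumors against 2, an exact permutation test (two-sided) cannot go below 0.333, and the share of all genes so separated was not counted. The log2 differences were -1.13 (SE 0.26, adjusted p = 0.0736) for Cmpk2, -0.60 (SE 0.357, adjusted p = 0.422) for Rsad2, -0.53 (SE 0.194, adjusted p = 0.201) for Samhd1 and -0.94 (SE 0.18, adjusted p = 0.0483) for Nt5c3 in edgeR's quasi-likelihood test. None was called, beside 0.455% of all genes, since Nt5c3 stayed under a ratio of 2. Cmpk2 passed both limits with DESeq2 (log2 difference -1.13, adjusted p = 0.00354), without the filter (-1.14, adjusted p = 1.29e-07 in edgeR) and in a fit of only the groups compared (-1.12, adjusted p = 0.032 in edgeR), so its call depends on these choices.

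**Figure D3:**
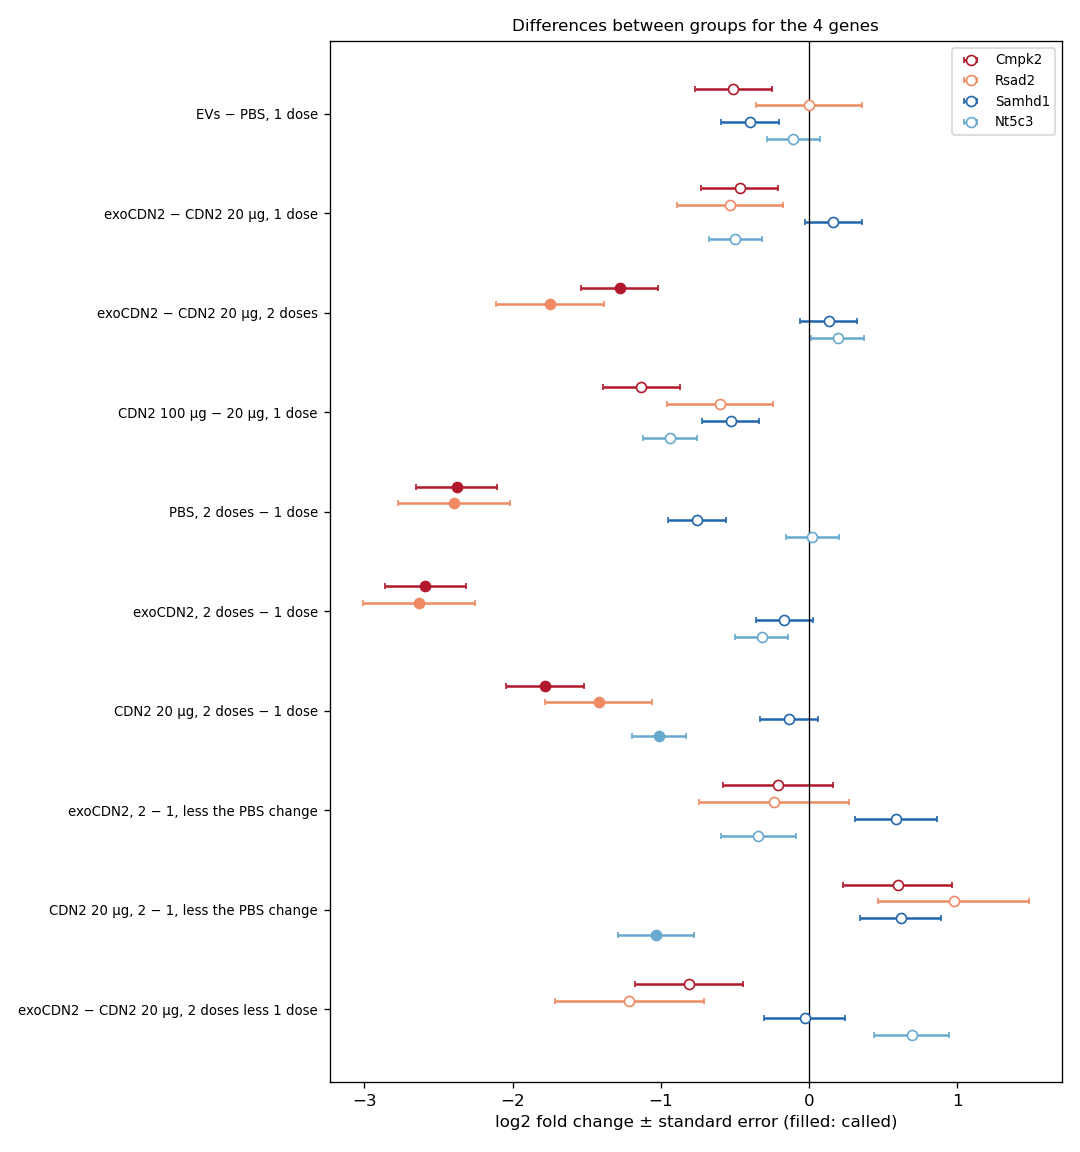
Log2 fold change ± standard error (horizontal axis) of the 4 genes in 10 comparisons (vertical axis), from 1 edgeR fit to 16 tumors. Filled points passed both limits. Cmpk2 and Rsad2 are lower after 2 doses than after 1 in PBS, exoCDN2 and CDN2 tumors, and Nt5c3 is called only within CDN2 (20 µg) and in that change less the PBS change.

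From the first to the second dose, Cmpk2 and Rsad2 fell in all 3 series, the PBS tumors included. In PBS, Cmpk2 fell 5.2-fold (log2 -2.38, SE 0.275, adjusted p = 8.5e-04) and Rsad2 5.25-fold (log2 -2.39, SE 0.378, adjusted p = 0.00649) in edgeR's quasi-likelihood test. These 2 calls among the 4 genes stand beside 1.1% of all genes, of which 178 were lower and 8 higher. Without PBS tumor 2 of the second dose, the Rsad2 change was -2.17 with an adjusted p of 0.147 in edgeR. Samhd1 changed by -0.75 (95% interval -1.18 to -0.33, adjusted p = 0.114 in edgeR) and Nt5c3 by 0.02 (-0.37 to 0.41). These PBS tumors also enter the contrasts that chose the genes, and the number of injections and the day of collection cannot be told apart.

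Other markers moved between the PBS groups as well. The 4 T cell markers summed to between 5.10 and 6.66 CPM after 1 dose of PBS and between 0.818 and 1.32 CPM after 2. The keratinocyte markers Krt5 and Krt14, both detected in both groups, summed to 58.2 and 112 CPM after 1 dose and to between 0 and 0.206 CPM after 2. Macrophage and monocyte sums were 98.4 to 125 CPM after 1 dose and 61.0 to 82.2 CPM after 2, and neutrophil sums 4.44 to 4.74 and 1.55 to 1.90 CPM. Melanocyte sums went the other way, from 19209 and 19748 CPM to 22833 and 23121 CPM. So did skeletal muscle sums, from 33.4 and 53.8 CPM to 86.1 and 160 CPM. Not every marker list is printed here. The part of these shifts in the lower Cmpk2 and Rsad2 was not tested.

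With exoCDN2, Cmpk2 fell 6.02-fold (log2 -2.59, SE 0.272, adjusted p = 0.00156) and Rsad2 6.2-fold (log2 -2.63, SE 0.378, adjusted p = 0.00244) from the first dose to the second in edgeR's quasi-likelihood test. Samhd1 changed by -0.17 (95% interval -0.59 to 0.25) and Nt5c3 by -0.32 (-0.71 to 0.07), neither past the limits, so 2 of the 4 genes were called beside 7.44% of all genes. Taken relative to the change in PBS, none of the 4 was called, against 6.82% of all genes. Such a relative change equals the difference between the contrasts against PBS after 2 doses and after 1, which chose the genes. The relative log2 change was -0.21 (95% interval -1.01 to 0.59) for Cmpk2 and -0.24 (-1.34 to 0.87) for Rsad2, so the lower level at the second dose was not shown to exceed that in PBS. For Samhd1 it was 0.59 (-0.01 to 1.18) and for Nt5c3 -0.34 (-0.89 to 0.21).

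With CDN2 (20 µg), 3 of the 4 genes fell, beside 20.8% of all genes called. Cmpk2 fell 3.43-fold (log2 -1.78, SE 0.265, adjusted p = 0.00105), Rsad2 2.68-fold (log2 -1.42, SE 0.362, adjusted p = 0.011) and Nt5c3 2.02-fold (log2 -1.01, SE 0.18, adjusted p = 0.00204) in edgeR's quasi-likelihood test. Samhd1 changed by -0.14 (95% interval -0.56 to 0.29). The Rsad2 call was lost without CDN2 tumor 2 of the first dose (log2 -1.13, adjusted p = 0.0682) and without CDN2 tumor 1 of the second (log2 -1.38, adjusted p = 0.0532), and in a fit of only these 4 tumors (log2 -1.40, adjusted p = 0.0707 in edgeR). Nt5c3 sat at the ratio limit: without CDN2 tumor 2 of the first dose its log2 change was -0.82, and with DESeq2 it was -0.98.

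Relative to PBS, Nt5c3 was the only one of the 4 genes called for the second dose of CDN2 (20 µg), where 16.8% of all genes were called. Its relative log2 change was -1.03 (SE 0.254, adjusted p = 0.0157 in edgeR's quasi-likelihood test), beside a direct change of -1.01 and a change of 0.02 in PBS. A relative change equals the difference between the contrasts against PBS after 2 doses and after 1. Those contrasts chose the genes, so the adjusted p is only a description. The call was lost when CDN2 tumor 2 of the first dose (-0.84), PBS tumor 1 of the first dose (-1.04) or PBS tumor 2 of the first dose (-1.07) was left out, with adjusted p-values up to 0.056 in edgeR. The other relative changes were 0.60 (95% interval -0.20 to 1.40) for Cmpk2, 0.97 (-0.13 to 2.08) for Rsad2 and 0.62 (0.02 to 1.21, adjusted p = 0.123 in edgeR) for Samhd1. The melanocyte sum was between 21873 and 22156 CPM after 1 dose of CDN2 (20 µg) and 7231 and 12410 CPM after 2, and the skeletal muscle markers Acta1 and Ckm summed to 34.8 and 125 CPM after 1 dose and 1227 and 2826 CPM after 2. Their part in the change of Nt5c3 was not tested.

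**Figure D4:**
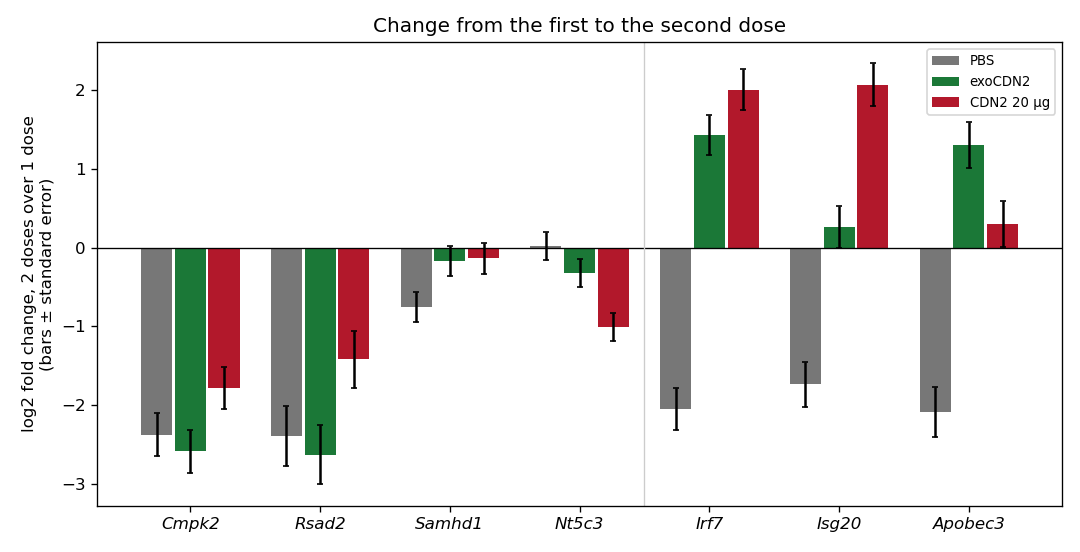
Log2 fold change from the first to the second dose (vertical axis, bars ± standard error) in PBS (grey), exoCDN2 (green) and CDN2 (20 µg, red) tumors, for the 4 genes and, right of the line, 3 genes of the pathway lists. Cmpk2 and Rsad2 lie below 0 in all 3 series, whereas Irf7 is at -2.05 in PBS and above 0 with both agonists.

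Other genes of interferon signalling and nucleotide handling gave the setting of these changes. The lists held 12 interferon signalling genes, all tested, and 64 nucleotide genes, of which 59 were tested. Irf7, a transcription factor that amplifies interferon production and is itself interferon-inducible, fell in PBS from the first to the second dose (log2 -2.05, SE 0.268) and rose with exoCDN2 (1.43, SE 0.257) and with CDN2 (20 µg) (2.01, SE 0.261). Relative to PBS its log2 change was 3.48 with exoCDN2 and 4.06 with CDN2, both called by edgeR, where those of Cmpk2 and Rsad2 were not. Its levels were 133 and 146 CPM after 1 dose of exoCDN2 and 435 and 316 CPM after 2, so Irf7 was higher in tumors where Cmpk2 was lower. Isg20, an interferon-inducible exonuclease, rose with the second dose of CDN2 (log2 2.07, SE 0.272), and Apobec3, a cytidine deaminase acting on viral DNA, rose with that of exoCDN2 (1.31, SE 0.297). In PBS both fell, with log2 changes of -1.73 and -2.09. The transcript of interferon beta itself, Ifnb1, was at 24.1 and 20.1 CPM after 1 dose of exoCDN2 and at 0.138 and 0.0427 CPM after 2, from 7 and 3 counts. After CDN2 (20 µg) it was at 14.0 and 54.9 CPM after 1 dose and 10.5 and 1.07 CPM after 2. Like Cmpk2 and Rsad2, it fell from the first to the second dose with both agents (adjusted p = 0.0036 and 0.032 in edgeR), and after 2 doses it was lower with exoCDN2.

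Between the agents after 2 doses, 1 of the 59 nucleotide genes was higher with exoCDN2 and 14 were lower, 25.4% of the list beside 19.4% of all genes. Higher was Dpyd, which starts pyrimidine breakdown (log2 1.24, SE 0.395). Among the lower were the kinases Nme4 (-1.07, SE 0.147), Guk1 (-1.002, SE 0.148) and Nme3 (-1.16, SE 0.172), which phosphorylate nucleoside diphosphates or GMP. The median over the list was -0.31, beside 0.03 over all genes. Of the interferon genes, Ifnb1 was lower, and the median over the list was 0.32. After 1 dose, 0 nucleotide genes were higher and 1 was lower with exoCDN2 (1.69% beside 0.608% of all genes), Ak4 (-1.01, SE 0.208), an adenylate kinase of mitochondria.

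Within exoCDN2, 2 nucleotide genes were higher after the second dose, Apobec3 and Xdh (1.72, SE 0.455), an enzyme of purine breakdown. The 3 lower genes were Tyms (-1.10, SE 0.189), Adk (-1.05, SE 0.184) and Dtymk (-1.06, SE 0.314), the first and last of which serve dTTP supply. These calls are 8.47% of the list, near the 7.44% of all genes. Within CDN2 (20 µg), 7 were higher and 3 lower, 16.9% of the list and under the 20.8% of all genes. Those higher included Upp1 (3.98, SE 0.718) and Pnp2 (3.02, SE 0.542), which split nucleosides, and those lower were Rrm1 (-1.30, SE 0.249) and Rrm2 (-1.02, SE 0.222), the subunits of ribonucleotide reductase, and Cad (-1.31, SE 0.301), which starts pyrimidine synthesis. Upp1 stood at 411 and 65.2 CPM in the CDN2 tumors of the second dose, so 1 of them carried most of the rise. In PBS, 0 nucleotide genes were higher and 3 lower (5.08% of the list beside 1.1% of all genes), Apobec3, Isg20 and Apobec1 (-1.20, SE 0.236). Cmpk1, the cytosolic counterpart of Cmpk2, lay between 73.6 and 99.5 CPM in all 16 tumors. It was looked up for its kinship with Cmpk2 and not by the rule for named genes.

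Against PBS, the same lists were counted. After 1 dose of exoCDN2, 5 nucleotide genes were higher and 0 lower (8.47% of the list beside 2.62% of all genes), led by Isg20 (log2 2.79, SE 0.283), the DNA exonuclease Trex1 (2.80, SE 0.424) and the RNA deaminase Adar (1.59, SE 0.255), and the list median was -0.06 beside -0.02 over all genes. The count was 6 and 0 for CDN2 (20 µg), 10.2% beside 3.14%, and 2 and 0 for CDN2 (100 µg), 3.39% beside 2.44%. After 2 doses it was 9 and 5 for exoCDN2, 23.7% beside 11.3%, and 13 and 4 for CDN2 (20 µg), where 28.8% of the list was near the 30.6% of all genes. Of the 12 interferon genes, 4 were higher in each of the 3 agonist groups after 1 dose, 5 after 2 doses of exoCDN2 and 7 after 2 doses of CDN2, or 33.3%, 41.7% and 58.3% of that list, and 0 were lower in any.

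Likeness to each gene was measured as the root mean square difference of mean-centred log2 CPM over the 16 tumors. A smaller value means a profile closer in both direction and size of change. The values were not scaled, so genes of unlike range lie far apart even where they rise and fall together. The gene closest to Cmpk2 was Rsad2 (0.41), followed by the chemokine Cxcl10 (0.49) and the antiviral GTPase Mx2 (0.49). For Rsad2 the order was Cxcl10 (0.33), Cmpk2 (0.41) and Ifit3 (0.44), an interferon-induced RNA-binding protein. Samhd1 was closest to Tifa (0.22), Spsb1 (0.23) and Rnf135 (0.25), and Nt5c3 to Stard5 (0.20), Whamm (0.24) and N4bp1 (0.26). Samhd1 and Nt5c3 stood 0.40 apart, and Samhd1 and Cmpk2 1.77 apart. All 16 points share the same few libraries, and the measure is a description. Of the closest genes with a RefSeq promoter, Cxcl10 and Ifit3 held an ISRE core in the window searched, and Tifa, Spsb1, Rnf135, Stard5, Whamm and N4bp1 held none.

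Around the Cmpk2 and Rsad2 pair, 500 kb to either side held 1 further gene that passed the filter, Rnf144a, a ubiquitin ligase gene. Its level lay between 14.7 and 37.4 CPM in the 16 tumors. Against PBS after 1 dose its log2 fold change was -0.24 (SE 0.134) with exoCDN2 and -0.51 (SE 0.134) with CDN2 (20 µg), and neither was called. Between 1 and 2 doses of CDN2 (20 µg) it rose by 1.14 on the log2 scale (SE 0.136, adjusted p = 4.5e-04 in edgeR), where Cmpk2 and Rsad2 fell.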

How the data were processed

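RNA from 18 whole tumors was sequenced in pairs of reads. The authors aligned the reads to GRCm38 (mm10 in the submitters' notes) with OSA in ArraySuite 10.1 and ran RSEM on the genes of Ensembl 88. The values deposited by the authors are the resulting expected counts, not normalized, and 8.75% to 12.7% of the values of a tumor were not whole. RSEM shares reads between similar transcripts, so a value includes that estimate. The counts were rounded and fitted with edgeR 4.0.16 (R 4.3.3): filterByExpr (minimum count 10, minimum total 15), TMM factors, and a quasi-likelihood model with 1 mean for each of 8 groups over 16 tumors, with 8 residual degrees of freedom and a common biological coefficient of variation of 0.22. Benjamini-Hochberg adjustment was made over 16927 genes, and calls needed a ratio over 2 and an adjusted p below 0.05. The 2 tumors of unlabelled amount entered no test.

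Symbols, positions and exon lengths came from GENCODE M21 (50376 of 50600 genes had a symbol), and TPM was computed from the counts and these lengths. Levels on the log2 scale used a prior count of 2. Promoters came from RefSeq (GRCm38.p6). Named genes were the 4 members, for each comparison at most the 3 called list genes of smallest p each way, and the 3 genes closest to each member. Named genes beyond this rule are marked, not all are printed, and 1 gene of the interferon list is not reported here. The members, lists and tests were chosen with earlier results of these data known.

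The procedure was tested on simulated data. Alternatives were DESeq2 1.42.0, edgeR's RLE factors, no filter, only the groups compared, all 18 tumors, pooled PBS tumors, the replicate number as a block, and each tumor left out.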

Additional observations from a re-analysis of the deposited data

Results flagged for a closer look

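The change of Nt5c3 from the first to the second dose differed between CDN2 (20 µg) and PBS tumors, by -1.03 on the log2 scale (adjusted p = 0.0157 in edgeR's quasi-likelihood test). This value equals a difference between contrasts against PBS, which chose the genes, so the adjusted p is only a description. The call was lost in a fit of only the groups compared (-1.08, adjusted p = 0.0516) and when CDN2 tumor 2, PBS tumor 1 or PBS tumor 2 of the first dose was left out (-0.84, -1.04 and -1.07, with adjusted p up to 0.056 in edgeR). Both CDN2 tumors of the second dose were below both of the first, at 110 CPM against 190 and 253 CPM, and the PBS tumors lay between 62.5 and 67.1 CPM at both doses.

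The 2 tumors given 2 doses of CDN2 in an amount their labels do not state were in no comparison. Their Cmpk2 was 37.9 and 27.7 CPM, and the lower of these was 3.01 times the highest PBS tumor of the second dose. Rsad2 was at 86.8 and 66.8 CPM, with a ratio of 3.13, Samhd1 at 83.2 and 75.1 CPM, with a ratio of 1.40, and Nt5c3 at 69.1 and 103 CPM, with a ratio of 1.04. In Cmpk2 and Rsad2 they lay below the PBS tumors of the first dose and far below the tumors given 2 doses of CDN2 (20 µg), which had at least 414 and 1691 CPM on the same scale of 18 tumors.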

How the results depend on the processing

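Leaving aside the fits with 1 tumor left out, 228 tested values for the 4 genes kept direction and call under an alternative, 4 gained a call, 7 lost it and 5 changed sign, each of the last under an adjusted p of 1. With 1 tumor left out, 188 kept both, 9 lost a call and 11 changed sign. The call of lower Cmpk2 with CDN2 (100 µg) than with CDN2 (20 µg) was gained with DESeq2 (-1.13), without the filter (-1.14) and with only the groups compared (-1.12), and the Rsad2 interaction of agent and dose without the filter (-1.15). Lost with only the groups compared were Cmpk2 and Rsad2 between the agents after 2 doses (-1.30 and -1.77), Rsad2 and Nt5c3 for the second dose of CDN2 (-1.40 and -0.996) and Nt5c3 relative to PBS (-1.08), and Nt5c3 for that dose also with DESeq2 (-0.98) and RLE factors (-0.98). Sign changes with all tumors kept were Rsad2 for EVs without the filter (-0.0069), with all 18 tumors (-5e-04) and with the replicate block (-0.0373), Cmpk2 for EVs with pooled PBS (0.23) and the Samhd1 interaction without the filter (0.0344). The causes were not tested.

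Pooling the PBS tumors of both doses moved the described differences. After 1 dose, Cmpk2, Rsad2 and Samhd1 were then at 5.27, 5.83 and 1.85 for exoCDN2, 5.74, 6.36 and 1.68 for CDN2 (20 µg), and 4.61, 5.76 and 1.15 for CDN2 (100 µg). After 2 doses, Cmpk2 and Rsad2 were at 2.69 and 3.20 for exoCDN2, and with Samhd1 at 3.96, 4.94 and 1.55 for CDN2 (20 µg).

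With each tumor left out in turn, the log2 values ranged as follows. For Cmpk2 it was -1.45 to -1.09 between the agents after 2 doses and -0.41 to 0.0167 for exoCDN2 relative to PBS. For Rsad2 it was -1.99 to -1.498 between the agents after 2 doses, -1.73 to -1.13 for the second dose of CDN2, -2.66 to -2.17 for that of PBS, -0.86 to 0.53 for EVs and -0.51 to 0.0266 for exoCDN2 relative to PBS. For Nt5c3 it was -1.25 to -0.82 for the second dose of CDN2, -1.28 to -0.84 for it relative to PBS, -0.0307 to 0.0721 for that of PBS and 0.69 to 0.79 for 2 doses of CDN2 against PBS. For Samhd1 it was -0.18 to 0.43 between the agents after 2 doses, -0.50 to 0.10 for the second dose of exoCDN2 and -0.34 to 0.27 for the interaction. A lone tumor was then assumed to vary like the other groups.

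The number of genes called moved more. It was 0 for EVs and up to 227 without the filter. Between the agents it was 103 after 1 dose (0 to 707 over the alternatives) and 3279 after 2 (1023 to 6257), and their interaction gave 1407 (5 to 4847). The amounts of CDN2 gave 77 (0 to 800). For the second dose it was 1260 (175 to 1886) with exoCDN2, 3521 (1968 to 6054) with CDN2 and 186 (85 to 766) with PBS, and relative to PBS 1154 (494 to 2045) and 2848 (1330 to 5661). Against PBS it was 444 (146 to 1166), 532 (167 to 1076) and 413 (86 to 1178) after 1 dose, and 1920 (902 to 2446) and 5177 (3768 to 7363) after 2.

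Same-numbered tumors deviated together with r from -0.16 to 0.32. The labels give only a number, so whether same-numbered tumors share anything else is not known. The replicate block gave 0 calls in place of 103 between the agents after 1 dose and 48 in place of 77 between the amounts of CDN2, left every other count within 1.5 times, and changed no call of the 4 genes. Crossing the numbers of the CDN2 (20 µg) tumors of 2 doses, a choice made after seeing the data, gave 3503 calls in place of 3521 for the second dose and 5185 in place of 5177 against PBS.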
